A study of Arabidopsis thaliana with 18 samples.

Results

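The transcripts described here come from 34 nuclear genes of Arabidopsis thaliana that encode subunits of the chloroplast photosystems, of the antenna next to them, of the carriers that move electrons between them and of the ATP synthase. The genes were picked from the expression table by their locus identifiers, in a choice made with earlier results of these data known, and were 34 of the 27371 genes listed. By role they comprised 12 subunits of the photosystem I (PSI) core, 4 LHCA antenna proteins of PSI, 10 subunits of photosystem II (PSII), 2 minor antenna proteins of PSII (LHCB5 and LHCB6), 3 electron carriers (PETC, PETE1 and PETE2), 2 ATP synthase subunits (ATPC1 and ATPD) and LQY1, a protein of PSII repair.

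All plants were of the ecotype Col-0 and 21 days old. They had germinated for 5 days and then grown for 16 days on plates with 100 mM NaCl, so that the salt was shared by every group, controls included. Shoots were sampled from plants given 100 nM ACC, from plants given 100 nM KMBA, from plants colonised by SA187 and from untreated plants (WT), and roots were sampled from the ACC and KMBA plants. ACC is the direct precursor of the hormone ethylene, KMBA is a methionine-derived keto acid that can also give rise to ethylene, and SA187 is an Enterobacter endophyte of desert plants that lives in roots. Each of the 6 groups had 3 libraries of polyA RNA, 18 in all, and roots of untreated and of SA187 plants were not analysed here. The sources used here do not give how many plants went into a library, and the p-values cover no more than the spread among libraries.

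In the light reactions, PSII takes electrons from water and passes them through plastoquinone to the cytochrome b6f complex. Plastocyanin carries them on to PSI, which reduces ferredoxin, and the proton gradient built up on the way drives the ATP synthase. The reaction centre proteins are encoded in the chloroplast, whereas most of the peripheral and lumenal subunits come from nuclear genes that are transcribed strongly in green cells and respond to light and to signals from the plastid. Roots hold mostly non-green plastids.

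The deposited values were FPKM, fragments per length of transcript and per number of fragments sequenced, which are scaled by transcript length and can therefore be compared between genes. The libraries held between 14470 and 17212 genes at 1 FPKM or more, and FPKM summed to between 357506 and 633792 per library. Replicates correlated with r between 0.971 and 0.985 across genes, except in WT shoots, where r was between 0.917 and 0.960. The WT libraries also differed in how their values depended on transcript length. WT replicate 3 had a slope of -0.371 on the log2 scale per doubling of length relative to the mean of the shoot libraries, WT replicate 1 one of -0.116 and WT replicate 2 one of 0.020, against -0.044 to 0.109 in the other shoot libraries. The 34 genes had transcripts of 607 to 1521 nt with a median of 1153 nt, so values without single WT libraries are given beside the results that rest on them. The 10 root marker genes summed to 189 to 237 FPKM in the root libraries and to 19.3 to 26.2 FPKM in the shoot libraries. In each shoot group 7 of them were under 1 FPKM. With each compound 9 were higher in roots than in shoots (limma, adjusted p under 0.05), and 1 was lower with KMBA. Of all tested genes, 57.0% were higher in roots with ACC and 59.7% with KMBA. The flower markers AG, AP3, PI, SEP3 and AP1 were below 1 FPKM in all shoots. Since whole organs were sampled, fewer green cells and less transcript per green cell cannot be told apart in any of these values.

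No member was at 0 in any library, and all 34 passed the filter of at least 1 FPKM in at least 3 libraries. Summed over the 34 genes, the level was 27948, 28843 and 25773 FPKM in ACC shoots, 33028, 29765 and 29716 FPKM in KMBA shoots, 33497, 35921 and 28582 FPKM in SA187 shoots, and 33636, 33923 and 32448 FPKM in WT shoots. Every ACC library lay below every KMBA and WT library, whereas the KMBA and SA187 libraries overlapped with each other and with WT. As a percent of all FPKM in a library, the members made up 6.26, 6.65 and 6.4 in ACC shoots. The percent was 5.61, 8.26 and 6.2 in KMBA shoots, 8, 7.86 and 7.56 in SA187 shoots, and 7.54, 5.35 and 6.02 in WT shoots. On this scale the ACC libraries overlapped with KMBA and with WT.

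**Figure D1:**
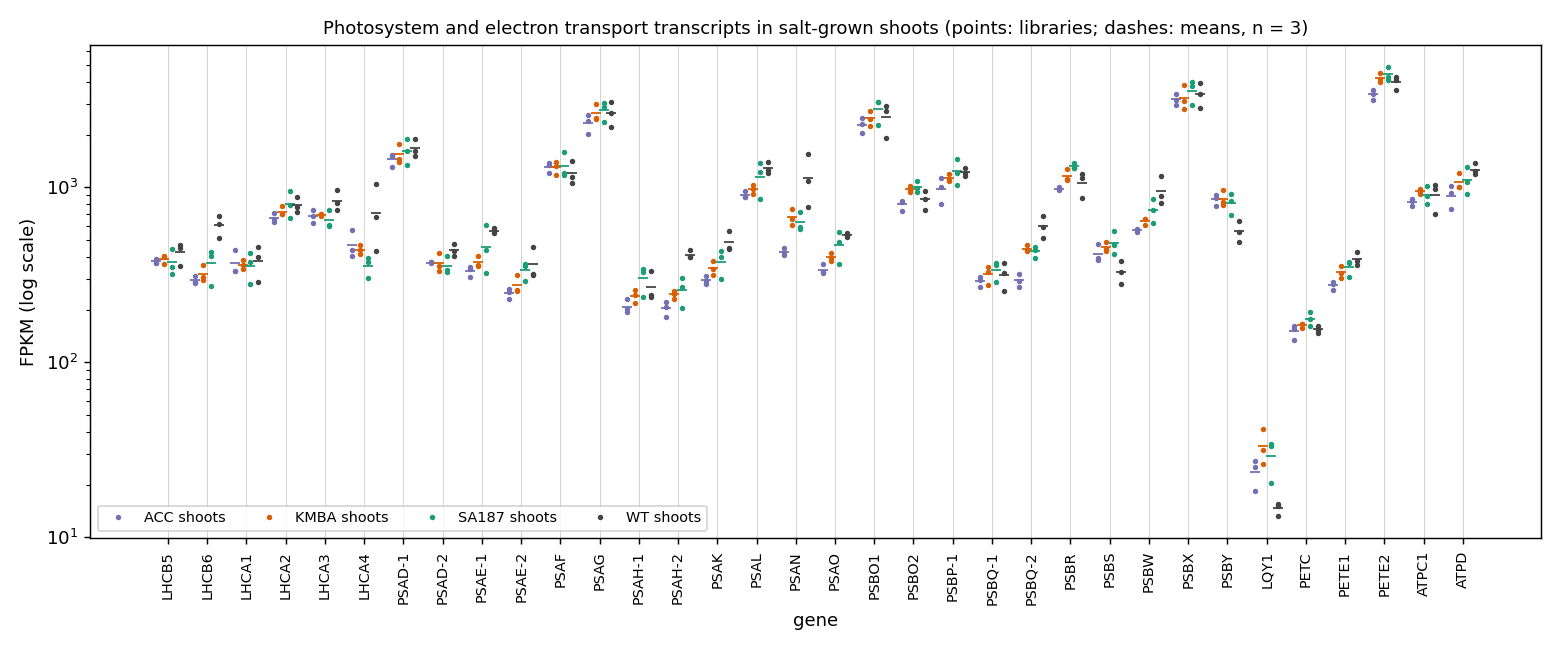
FPKM (log axis) of the 34 genes in ACC, KMBA, SA187 and WT shoots, grouped by role. Points are libraries and dashes are group means (n = 3). PETE2, with 3169 to 4865 FPKM, and LQY1, with 13.3 to 41.6 FPKM, mark the top and the bottom of the range.

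The members differed widely in level within each shoot group. Plastocyanin, the copper protein that brings electrons to PSI, was led by PETE2, with 3397 ± 214.8 FPKM in ACC shoots, 4230 ± 245.2 in KMBA shoots, 4417 ± 401.6 in SA187 shoots and 3998 ± 362.3 in WT shoots (SD, n = 3 each). PSBX, a small membrane subunit of PSII, came next with group means of 3190 to 3571 FPKM. Group means of 2331 to 2760 FPKM belonged to PSAG, a PSI subunit at the side that faces the LHCA antenna, and group means of 2281 to 2803 FPKM to PSBO1, the main copy of the manganese-stabilising protein of the oxygen-evolving complex. These neighbours overlapped in every group, and PSAG was ahead of PSBO1 in 3 of the 4. PETC, the Rieske protein of the cytochrome b6f complex, stood second from the bottom with group means of 150.5 to 177.4 FPKM, and LQY1 was lowest with group means of 14.7 to 33.1 FPKM. Replicate spread differed between the groups, with a median coefficient of variation over the members of 7.12% in ACC shoots, 7.59% in KMBA shoots, 15.95% in SA187 shoots and 13.85% in WT shoots.

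ACC shoots were set against WT shoots to see how these genes stood with the ethylene precursor in salt-grown plants. At an adjusted p under 0.05 (limma, Benjamini-Hochberg over 15724 genes), 12 of the 34 members were lower and 2 were higher in ACC shoots, where 13.2% of all tested genes were called lower and 20.3% higher. The 12 that fell were 7 of the 12 PSI core subunits (PSAN, PSAH-2, PSAE-1, PSAK, PSAO, PSAE-2 and PSAL), PSBQ-2 and PSBW of PSII, the minor antenna protein LHCB6, the plastocyanin PETE1 and the ATP synthase subunit ATPD. PSBY and LQY1 rose. PSAN, LHCB6, PSAH-2 and PSBQ-2 also passed a fold of 2, against 2.91% of all genes that were this far lower, and 0 members were this far higher, against 1.98% of all genes (at an unadjusted p under 0.05 alone, 3 members were higher). The median log2 difference was -0.24 over the members and 0.06 over all tested genes, and 30 of the 34 had a negative value. For 16 members all ACC libraries lay below all WT libraries, against 17% of all genes. Without WT replicate 3 the count was 11 lower with 2 past the fold of 2, without ACC replicate 3 it was 9 with 2, and with the sequencing pool as a covariate it was 8 with 2 (all WT libraries and ACC replicate 1 were in pool 1, ACC replicates 2 and 3 in pool 3). With WT replicate 2 as the only WT library, an alternative chosen after seeing the data, the median over the members was -0.35. A single library leaves the spread to be taken from the other groups, so calls are not counted there. Over all alternatives the smallest falls were -0.85 for PSAN, -0.80 for LHCB6, -0.74 for PSAH-2 and -0.81 for PSBQ-2, each short of a fold of 2. Of the 14 calls, 10 held in 13 to 15 of 15 alternatives, PSAE-2 in 9, PSAL and LQY1 in 8 and ATPD in 6.

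KMBA shoots differed from WT shoots at fewer members. LQY1, PSBY and PSBS rose and LHCB6, PSAH-2, PSAN, PSAE-1, PSBW, PSAK and PSBQ-2 fell, which made 3 higher and 7 lower of 34, against 9.50% and 11.0% of all tested genes. LQY1 alone passed the fold of 2, where 0.655% of all genes did so upward and 2.43% downward. The median log2 difference was -0.12 over the members and 0.00 over all genes, with 23 of 34 negative, and 12 members lay below WT without overlap, against 17.8% of all genes. The number called lower was 2 without any 1 of the KMBA libraries, with medians over the members of -0.20, -0.11 and -0.09 without KMBA replicates 1, 2 and 3. It was 3 without WT replicate 1 and 2 without WT replicate 3. LHCB6 was called in 14 of 15 alternatives and PSAH-2 in 13, and the other 5 that fell in 3 to 7. After each library's trend with transcript length and GC was subtracted, 1 was lower and 3 were higher. With WT replicate 2 as the only WT library the median over the members was -0.21. Over all alternatives the smallest falls were -0.69 for LHCB6 and -0.42 for PSAH-2, but -0.20 for PSAN and for PSBQ-2.

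SA187 shoots differed from WT shoots at 5 members. LQY1 and PSBY rose and LHCB6, PSAN and PSAH-2 fell, which made 2 higher and 3 lower of 34, against 1.70% and 4.38% of all tested genes. None passed the fold of 2 in either direction, where 0.235% of all genes did so upward and 1.38% downward (at an unadjusted p under 0.05 alone, 4 members were higher and 9 lower with limma). The median log2 difference was -0.07 over the members and -0.02 over all genes, with 18 of 34 negative, and 7 members lay below WT without overlap, against 14% of all genes. Both counts were 0 without SA187 replicate 2, without SA187 replicate 3, without WT replicate 1 and without WT replicate 3, whereas without WT replicate 2 the counts were 3 higher and 6 lower. With WT replicate 2 as the only WT library the median over the members was -0.16. The 3 comparisons share the WT libraries, so that a high or low WT value enters all of them. WT replicate 2 was the highest WT library for 17 members and WT replicate 3 the lowest for 17.

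**Figure D2:**
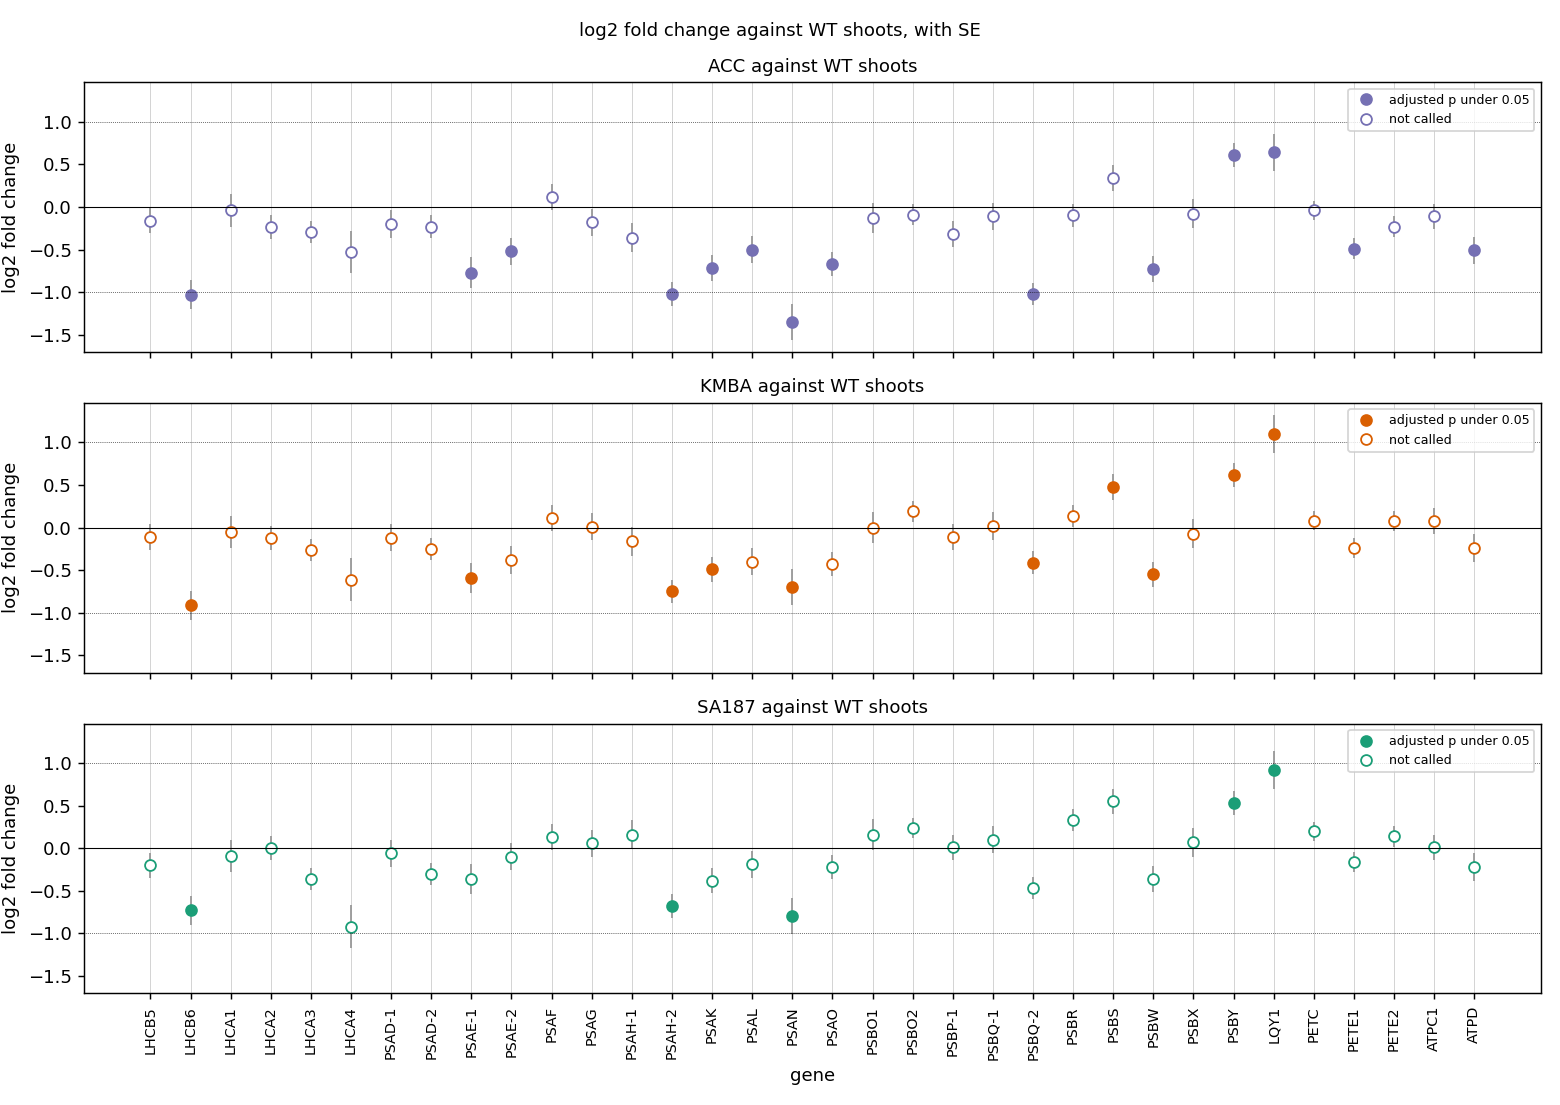
Log2 difference of each of the 34 genes in ACC shoots (top), KMBA shoots (middle) and SA187 shoots (bottom) against WT shoots, with the standard error of the limma fit. Filled points have an adjusted p under 0.05 and dotted lines mark a fold of 2. PSAN at -1.35 with ACC is the lowest point and LQY1 at 1.10 with KMBA the highest.

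The largest fall was that of PSAN (AT5G64040), a lumenal PSI subunit that assists electron transfer from plastocyanin. PSAN had 425, 452 and 409 FPKM in ACC shoots, 661, 611 and 748 FPKM in KMBA shoots and 722, 590 and 579 FPKM in SA187 shoots, against 1082, 772 and 1552 FPKM in WT shoots. Every treated library was below every WT library, and the WT libraries differed widely among themselves. On the log2 scale PSAN fell by 1.35 ± 0.21 with ACC (standard error, adjusted p = 0.00107), by 0.70 ± 0.21 with KMBA (adjusted p = 0.0358) and by 0.80 ± 0.21 with SA187 (adjusted p = 0.0442). The ACC call held in all 15 alternatives, between -1.59 and -0.85, whereas 5 of 15 kept the KMBA call and 5 of 15 the SA187 call.

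PSAH binds light-harvesting complexes to PSI during state transitions, in which the antenna moves between the photosystems, and Arabidopsis has a pair of genes for it. PSAH-2 (AT1G52230) had 222, 207 and 183 FPKM in ACC shoots, 255, 247 and 230 FPKM in KMBA shoots and 305, 269 and 206 FPKM in SA187 shoots, against 401, 399 and 437 FPKM in WT shoots. The 3 WT libraries were close together and none of the 9 treated libraries reached them. The log2 difference was -1.02 ± 0.14 with ACC (adjusted p = 0.000722), -0.75 ± 0.14 with KMBA (adjusted p = 0.00848) and -0.68 ± 0.14 with SA187 (adjusted p = 0.0258). PSAH-1 (AT3G16140) had 202, 229 and 195 FPKM in ACC shoots, 259, 242 and 220 FPKM in KMBA shoots and 341, 329 and 235 FPKM in SA187 shoots, against 243, 333 and 235 FPKM in WT shoots. PSAH-1 passed the test in none of the 3 comparisons, with log2 differences of -0.36, -0.16 and 0.16 for ACC, KMBA and SA187.

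PSAD and PSAE form the stromal side of PSI where ferredoxin docks, and each has a pair of genes. PSAE-1 had 341, 352 and 307 FPKM in ACC shoots, 407, 361 and 357 FPKM in KMBA shoots and 607, 437 and 322 FPKM in SA187 shoots, against 550, 586 and 562 FPKM in WT shoots. It fell by 0.77 ± 0.18 on the log2 scale with ACC (adjusted p = 0.00907) and by 0.59 ± 0.18 with KMBA (adjusted p = 0.0415), while the SA187 libraries overlapped with WT (-0.36, adjusted p = 0.233). The other copy, PSAE-2, had 254, 264 and 231 FPKM in ACC shoots, 315, 259 and 256 FPKM in KMBA shoots and 354, 363 and 292 FPKM in SA187 shoots, against 316, 318 and 455 FPKM in WT shoots. Here only ACC passed (-0.52, adjusted p = 0.027), and WT replicate 3 stood above the other WT libraries. PSAD-1 (1301 to 1888 FPKM over all shoot libraries) and PSAD-2 (327 to 475 FPKM) passed in no shoot comparison.

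The remaining falls in PSI were those of PSAK, PSAO and PSAL, small subunits at the sides where antenna complexes attach. PSAK had 282, 312 and 290 FPKM in ACC shoots, 342, 315 and 378 FPKM in KMBA shoots and 401, 431 and 298 FPKM in SA187 shoots, against 446, 452 and 564 FPKM in WT shoots. The ordering of the groups was the same as for PSAH-2, with ACC lowest and WT highest, and PSAK fell with ACC (-0.72 ± 0.15, adjusted p = 0.00518) and with KMBA (-0.49 ± 0.15, adjusted p = 0.0423), the KMBA call in 3 of 15 alternatives. PSAO (-0.67, adjusted p = 0.00509) and PSAL (-0.50, adjusted p = 0.0292) fell with ACC only, which does not show that the compounds differ. PSAF, which docks plastocyanin, and PSAG lay between -0.18 and 0.13 on the log2 scale in all 3 comparisons.

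The LHCA proteins form the belt of antenna around PSI, and none of the 4 passed the test against WT in any treatment. LHCA4 came nearest, with 440, 404 and 568 FPKM in ACC shoots, 417, 439 and 467 FPKM in KMBA shoots and 302, 396 and 372 FPKM in SA187 shoots, against 674, 435 and 1038 FPKM in WT shoots. The WT libraries spanned a wider range than the 9 treated libraries together. Its log2 difference was -0.92 ± 0.25 with SA187 (adjusted p = 0.053), and with WT replicate 2 as the only WT library the ACC and KMBA values turned positive (0.10 and 0.02). LHCA1, LHCA2 and LHCA3 lay between -0.36 and 0.00 in the 3 comparisons.

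In PSII the call with the smallest p concerned PSBQ-2 (AT4G05180), a copy of a lumenal protein of the oxygen-evolving complex. PSBQ-2 had 292, 321 and 268 FPKM in ACC shoots, 470, 433 and 438 FPKM in KMBA shoots and 457, 439 and 394 FPKM in SA187 shoots, against 592, 515 and 688 FPKM in WT shoots. All ACC libraries lay below all KMBA and SA187 libraries, and these below all WT libraries. PSBQ-2 fell by 1.02 ± 0.13 on the log2 scale with ACC (adjusted p = 0.000401) and by 0.41 ± 0.13 with KMBA (adjusted p = 0.0439, called in 3 of 15 alternatives), and the SA187 value was -0.47 ± 0.13 (adjusted p = 0.0537). PSBQ-1, the other copy, had 295, 305 and 271 FPKM in ACC shoots, 351, 329 and 278 FPKM in KMBA shoots and 359, 371 and 288 FPKM in SA187 shoots, against 325, 370 and 257 FPKM in WT shoots. It overlapped with WT in each treatment, and its log2 difference with ACC was -0.11 ± 0.16 (adjusted p = 0.598).

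PSBW, which stabilises the association of PSII with its antenna, had 578, 573 and 557 FPKM in ACC shoots, 661, 613 and 662 FPKM in KMBA shoots and 863, 741 and 625 FPKM in SA187 shoots, against 818, 891 and 1166 FPKM in WT shoots. WT replicate 3 was the highest, and PSBW fell with ACC (-0.73 ± 0.15, adjusted p = 0.00433) and KMBA (-0.55 ± 0.15, adjusted p = 0.0273). PSBY (AT1G67740), a small subunit near cytochrome b559, went the other way. It had 908, 875 and 787 FPKM in ACC shoots, 964, 828 and 796 FPKM in KMBA shoots and 697, 912 and 833 FPKM in SA187 shoots, against 557, 641 and 489 FPKM in WT shoots. No treated library overlapped with WT, and PSBY rose by 0.61 ± 0.14 with ACC (adjusted p = 0.00799), by 0.62 ± 0.14 with KMBA (adjusted p = 0.0159) and by 0.53 ± 0.14 with SA187 (adjusted p = 0.0499). The calls held in 14, 11 and 5 of 15 alternatives for ACC, KMBA and SA187.

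PSBS (AT1G44575), the sensor of lumen acidity that switches on the dissipation of excess light as heat, had 475, 392 and 383 FPKM in ACC shoots, 489, 435 and 444 FPKM in KMBA shoots and 469, 567 and 415 FPKM in SA187 shoots, against 329, 379 and 281 FPKM in WT shoots. All treated libraries were above all WT libraries, and the test was passed with KMBA (0.48 ± 0.15, adjusted p = 0.0458, called in 5 of 15 alternatives), while SA187 gave 0.55 ± 0.15 (adjusted p = 0.0534) and ACC gave 0.34 ± 0.15 (adjusted p = 0.101). The other PSII members, PSBO1, PSBO2, PSBP-1, PSBR and PSBX, passed in no comparison with WT, at log2 differences between -0.32 and 0.33.

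LHCB6 (AT1G15820), also called CP24, links the trimeric antenna to PSII. It had 311, 288 and 285 FPKM in ACC shoots, 360, 306 and 297 FPKM in KMBA shoots and 408, 427 and 274 FPKM in SA187 shoots, against 685, 515 and 620 FPKM in WT shoots. The groups did not overlap with WT, and LHCB6 fell by 1.03 ± 0.17 with ACC (adjusted p = 0.00162), by 0.91 ± 0.17 with KMBA (adjusted p = 0.00833) and by 0.73 ± 0.17 with SA187 (adjusted p = 0.0334). The ACC call held in all 15 alternatives and the KMBA call in 14, but the SA187 call in 7. LHCB5 (CP26), the other minor antenna protein, had 321 to 470 FPKM over the 12 shoot libraries and was not called in shoots.

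LQY1 (AT1G75690), a zinc finger protein of the thylakoid membrane that takes part in the repair of damaged PSII, was the member with the lowest level and the largest rise. It had 27.2, 25.1 and 18.5 FPKM in ACC shoots, 26.2, 31.5 and 41.6 FPKM in KMBA shoots and 20.4, 34.04 and 33.4 FPKM in SA187 shoots, against 15.5, 15.2 and 13.3 FPKM in WT shoots. All 9 treated libraries were above the 3 WT libraries, with a wide spread in KMBA and SA187 shoots. LQY1 rose by 1.10 ± 0.22 with KMBA (adjusted p = 0.00899), by 0.92 ± 0.22 with SA187 (adjusted p = 0.0335) and by 0.64 ± 0.22 with ACC (adjusted p = 0.0407). The KMBA call held in 14 of 15 alternatives, the SA187 call in 8 and the ACC call in 8.

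Among the carriers, PETE1, the minor plastocyanin, had 258, 290 and 281 FPKM in ACC shoots, 355, 324 and 305 FPKM in KMBA shoots and 368, 373 and 308 FPKM in SA187 shoots, against 358, 428 and 382 FPKM in WT shoots. Only ACC passed (-0.49 ± 0.12, adjusted p = 0.0104). PETE2 and PETC passed in no shoot comparison, with PETC between 135 and 195 FPKM in the 12 libraries. Of the ATP synthase subunits, ATPD (delta) had 1012, 928 and 747 FPKM in ACC shoots, against 1234, 1369 and 1191 FPKM in WT shoots, a log2 difference of -0.51 ± 0.16 (adjusted p = 0.0287) that was called in 6 of 15 alternatives. ATPC1, the gamma subunit that turns within the enzyme, was not called in any shoot comparison (-0.11, 0.08 and 0.01 for ACC, KMBA and SA187).

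The 12 members that fell with ACC had transcripts of 607 to 1204 nt with a median of 988 nt. Over the 34 members the correlation of the log2 difference with log2 transcript length was 0.38 for ACC, 0.40 for KMBA and 0.26 for SA187 against WT. These are descriptions across genes that share the WT libraries, and the part of length in the calls was addressed only by subtracting the length and GC trend, after which 11 members were lower with ACC, 2 of them past the fold of 2.

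The treatments were also compared with each other in shoots. Between ACC and KMBA shoots, PSBQ-2 was the only member called, lower by 0.61 ± 0.13 on the log2 scale (adjusted p = 0.0336), against 0.903% of all genes called lower and 1.47% called higher, and 0 members were higher (0 also at an unadjusted p under 0.05, where 4 were lower). No member passed the fold of 2, against 0.293% of all genes lower and 0.502% higher. The PSBQ-2 call was absent when any 1 of the 6 libraries was left out. PSAN had the lowest value (-0.65 ± 0.21, adjusted p = 0.14), and 12 members had all ACC libraries below all KMBA libraries, against 8.95% of all genes. The median over the members was -0.16, against 0.06 over all genes.

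ACC shoots differed from SA187 shoots at the same gene. PSBQ-2 was lower by 0.55 ± 0.13 on the log2 scale (adjusted p = 0.024), 1 of 34 members against 3.01% of all genes called lower, and 0 members were higher, against 6.19% of all genes (at an unadjusted p under 0.05, 13 were lower and 0 higher). The count was 0 without SA187 replicate 1 or 2 or without ACC replicate 1 or 3, and 6 without SA187 replicate 3, the SA187 library with the lowest sum over the members. PSAN (-0.55, adjusted p = 0.117), PSAH-1 (-0.51, adjusted p = 0.0823) and PSBR (-0.43, adjusted p = 0.0573) did not pass. The median over the members was -0.29, against 0.09 over all genes.

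No member passed the test between KMBA and SA187 shoots. None was called in either direction with limma, and 0 had an unadjusted p under 0.05, where 0% of all 15724 genes were called. The log2 differences ran from -0.31 (PSAH-1) to 0.31 (LHCA4) with standard errors of 0.11 to 0.25 and a smallest adjusted p of 0.908. This does not show that the treatments act alike.

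Roots were set against shoots of plants given the same compound. All 34 members were lower in roots with each compound at an adjusted p under 0.05 and a fold over 2, where 13.9% of 18357 tested genes were called lower with ACC and 13.5% with KMBA. Of all genes, 57.0% with ACC and 59.7% with KMBA were higher in roots at an adjusted p under 0.05 (22.7% and 24.7% with the fold), and 0 members were. The root libraries were in pools 2 and 4 and the shoot libraries in pools 1 and 3, so that organ and pool cannot be told apart. With ACC the mean root level was between 1.47% (PSAL) and 5.75% (LQY1) of the shoot level, with a median of 2.865% over the members. With KMBA it was between 2.11% (PSAL) and 6.12% (LQY1), with a median of 3.44%. The median log2 difference was -5.08 with ACC and -4.76 with KMBA, against 0.37 and 0.40 over all tested genes, and median-ratio scaling moved the median of all genes to 0.03 for both and that of the members to -5.49 and -5.23.

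**Figure D3:**
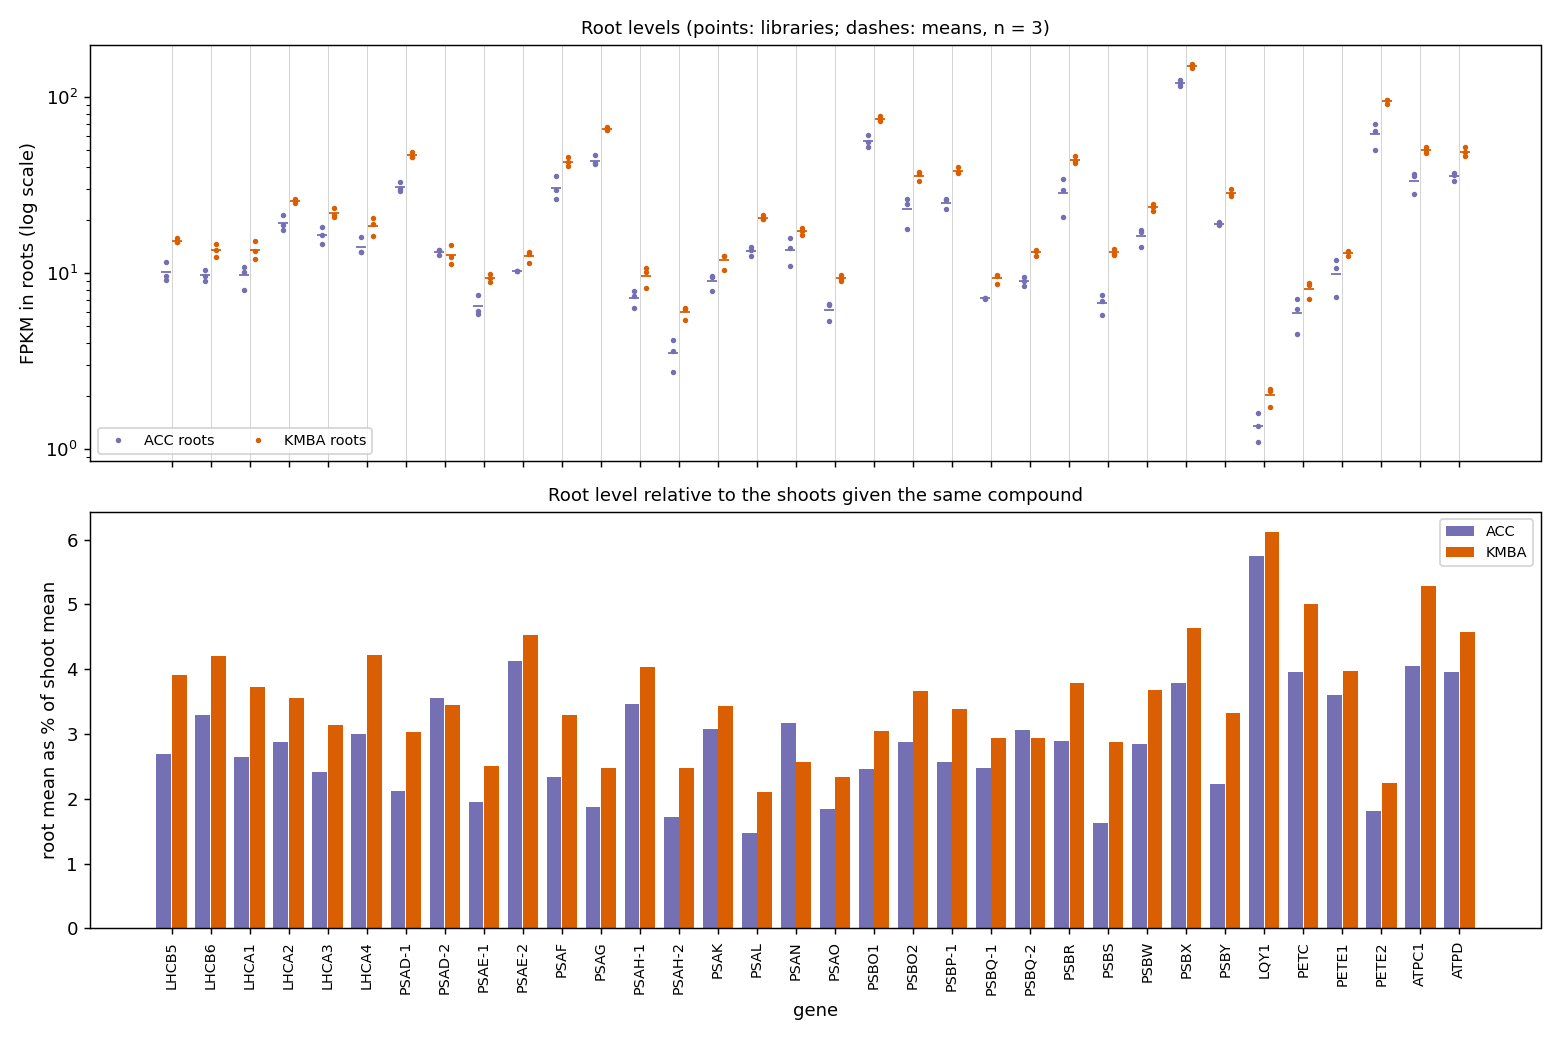
Top, FPKM (log axis) of the 34 genes in ACC roots and KMBA roots, with points for libraries and dashes for means (n = 3). Bottom, mean root level as a percent of the mean shoot level of the same compound. PSBX is highest in roots at 116 to 155 FPKM, LQY1 has the largest root percent (5.75 and 6.12) and PSAL the smallest (1.47 and 2.11).

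The order of the members in roots was not that of shoots. PSBX led with 121, 125 and 116 FPKM in ACC roots and 151, 155 and 146 FPKM in KMBA roots, ahead of PETE2 with 49.9, 64.2 and 70.3 FPKM in ACC roots and 91.8, 96.9 and 96.8 FPKM in KMBA roots. PSAL, the subunit that together with PSAH and PSAO contacts the mobile antenna, had 12.5, 14.0 and 13.5 FPKM in ACC roots, against 886, 955 and 885 FPKM in ACC shoots. LQY1 had 1.10, 1.36 and 1.62 FPKM in ACC roots and 1.74, 2.15 and 2.195 FPKM in KMBA roots, close to the filter, where the log2(FPKM + 1) scale understates a change.

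Between the root groups the members were lower with ACC. At an adjusted p under 0.05, 24 of 34 were lower and 0 higher in ACC roots than in KMBA roots, where 9.40% of 17169 tested genes were called lower and 6.79% higher (at an unadjusted p under 0.05, 33 were lower and 0 higher). The 24 included all 10 PSII subunits, 7 of 12 PSI core subunits, both minor antenna proteins, LHCA2 and LHCA3, PETE2 and both ATP synthase subunits. None passed the fold of 2, against 0.687% of all genes lower and 0.571% higher. The median log2 difference was -0.47 over the members and 0.00 over all genes, 33 of 34 were negative, and for 33 the libraries did not overlap, against 18.6% of all genes. Summed FPKM was 673, 772 and 735 in ACC roots, against 1025, 1015 and 1029 in KMBA roots. The count stayed between 10 and 24 when a library was left out, with 11 without KMBA replicate 1 and 10 without KMBA replicate 3, and the median stayed between -0.52 and -0.42. All ACC root libraries were sequenced in pool 4 and all KMBA root libraries in pool 2, so that compound and pool cannot be told apart here.

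PSBS had the largest difference, with 5.77, 7.54 and 6.94 FPKM in ACC roots, against 12.9, 13.8 and 12.7 FPKM in KMBA roots. The libraries of the compounds were well separated, and PSBS was lower by 0.87 ± 0.10 on the log2 scale (adjusted p = 0.00257). Next were PSAH-2 with 2.75, 4.17 and 3.59 FPKM in ACC roots, against 6.26, 5.44 and 6.38 FPKM in KMBA roots (-0.65 ± 0.12, adjusted p = 0.0152), and PSBR, a PSII protein needed for stable assembly of the oxygen-evolving proteins. PSBR had 20.9, 34.5 and 29.8 FPKM in ACC roots, against 42.2, 43.2 and 46.4 FPKM in KMBA roots (-0.64 ± 0.17, adjusted p = 0.04).

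PETE2, whose library values are given above, was lower by 0.64 ± 0.12 (adjusted p = 0.0166). PSBO2 had 17.9, 24.8 and 26.4 FPKM in ACC roots, against 33.2, 37.5 and 36.5 FPKM in KMBA roots (-0.63 ± 0.14, adjusted p = 0.025). For both genes ACC replicate 1 was the lowest library by some distance. PSBP-1, another lumenal protein of the oxygen-evolving complex, had 23.1, 26.1 and 26.4 FPKM in ACC roots, against 37.7, 36.9 and 40.2 FPKM in KMBA roots (-0.59 ± 0.08, adjusted p = 0.00431). PSAD-2 was the exception, with 13.5, 13.5 and 12.7 FPKM in ACC roots, against 12.3, 11.3 and 14.5 FPKM in KMBA roots. Its libraries overlapped and its log2 difference was 0.06 ± 0.09 (adjusted p = 0.728). The ratio of the means, ACC over KMBA roots, was 0.51 for PSBS, 1.04 for PSAD-2 and 0.70 at the median of the members.

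Whether the difference between the organs depended on the compound was tested as a difference of differences. For 4 of 34 members the drop in roots was larger with ACC than with KMBA at an adjusted p under 0.05, and for 0 it was smaller, against 7.40% and 2.93% of 18357 tested genes (at an unadjusted p under 0.05, 18 and 0). None passed the fold of 2, against 1.67% of all genes downward. They were PSBS (-0.74 ± 0.15, adjusted p = 0.00984), PSBY (-0.55 ± 0.13, adjusted p = 0.0187), LHCB5 (-0.50 ± 0.12, adjusted p = 0.0234) and PSAL (-0.49 ± 0.11, adjusted p = 0.0164). PSBY had 19.6, 19.0 and 18.8 FPKM in ACC roots, against 30.1, 28.2 and 27.5 FPKM in KMBA roots, while its shoot values with the compounds overlapped. The count was 1 without KMBA root replicate 1, 1 with median-ratio scaling, 1 with trends in length and GC removed and 0 when values were taken relative to the summed FPKM of all other genes, where the median over all genes was -0.15.

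Of the 6 subunits with paired genes in the list, the log2 ratio between the copies was tested within libraries, with 1 FPKM added to each copy. A scale factor of the library thus drops out nearly in full for abundant copies, but less so for low ones, as in roots. The copies of 1 subunit encode closely related proteins, and reads from identical stretches cannot be assigned to one of them. The coding sequences were 75% (PETE1 and PETE2) to 88% (PSAD-1 and PSAD-2) identical over aligned bases, and the longest stretch that the annotated transcripts of a pair share was between 17 nt (PETE) and 35 nt (PSAD). The sources used here do not give how the authors' counting treated reads that match both copies. For PSAH, the pair whose ratio differed most between shoot groups, the first 240 of 438 coding bases are printed in the sense of the transcript, with capitals at the 34 positions where the copies differ, out of 57 in the whole coding sequence. They show how far reads of the copies can be told apart. PSAH-1 lies at chr3:5467987-5469594 on the minus strand and PSAH-2 at chr1:19454798-19455668 on the plus strand of the RefSeq assembly TAIR10.1, and these bases are coding exon sequence.
PSAH-1: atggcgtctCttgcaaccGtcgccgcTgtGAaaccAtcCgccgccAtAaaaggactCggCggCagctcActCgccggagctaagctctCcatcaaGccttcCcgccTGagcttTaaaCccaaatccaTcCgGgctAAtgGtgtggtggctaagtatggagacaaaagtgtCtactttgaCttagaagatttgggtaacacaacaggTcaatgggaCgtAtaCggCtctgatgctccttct
PSAH-2: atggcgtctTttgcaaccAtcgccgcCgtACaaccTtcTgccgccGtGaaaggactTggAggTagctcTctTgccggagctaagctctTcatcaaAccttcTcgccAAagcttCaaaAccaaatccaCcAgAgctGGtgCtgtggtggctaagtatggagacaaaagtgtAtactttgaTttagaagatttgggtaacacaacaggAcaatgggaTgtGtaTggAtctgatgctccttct

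The PSAH copies shifted against each other between the shoot groups. PSAH-1 made up 47.6%, 52.5% and 51.6% of the summed FPKM of both copies in ACC shoots, 50.3%, 49.5% and 48.8% in KMBA shoots and 52.8%, 54.9% and 53.3% in SA187 shoots, against 37.7%, 45.5% and 35.0% in WT shoots. The share was higher in all 9 treated libraries than in all WT libraries. The log2 ratio of the copies differed among the 4 groups (exact permutation test of F over 369600 arrangements, F = 11.8, p = 0.00117, 0.00701 after adjustment over 6 pairs). Without the WT group the adjusted p was 0.193 (F = 4.93), and when a library was left out it was between 0.00351 and 0.101, at or over 0.05 in 8 of 12 cases. The annotated transcripts are 1300 nt for PSAH-1 and 702 nt for PSAH-2, and WT replicate 3, with the lowest share, was also the library with the steepest dependence on length, the part of which was not tested.

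PSBQ-1 made up 50.2%, 48.8% and 50.2% of its pair in ACC shoots, 42.7%, 43.2% and 38.8% in KMBA shoots and 44.0%, 45.8% and 42.3% in SA187 shoots, against 35.4%, 41.8% and 27.2% in WT shoots. ACC was above every other library, and WT again spread the most. The groups differed (exact permutation test, F = 6.53, p = 0.00552, adjusted p = 0.0166), with a larger F of 15.8 but an adjusted p of 0.0643 without the WT group. When a library was left out the adjusted p was 0.00117 to 0.101, at or over 0.05 in 8 of 12 cases. In this pair the copies are closer in length, at 994 nt for PSBQ-1 and 1155 nt for PSBQ-2. For PSAD, PSAE, PSBO and PETE the adjusted p was between 0.22 and 0.503.

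**Figure D4:**
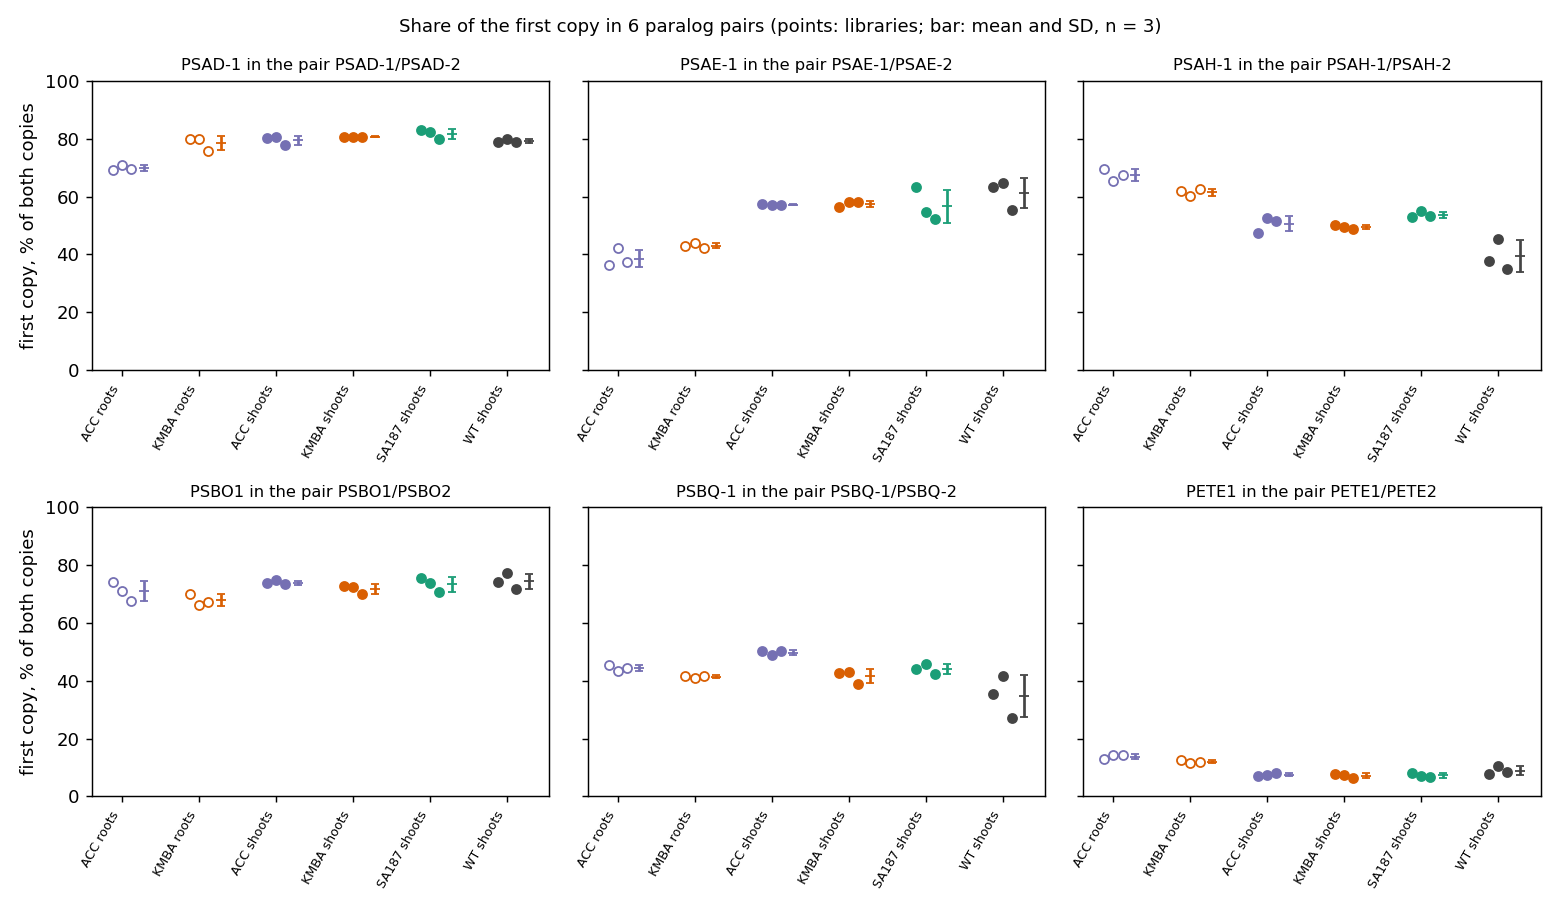
FPKM of the first-named copy as a percent of both copies, for 6 pairs of genes (panels) in ACC roots, KMBA roots and ACC, KMBA, SA187 and WT shoots. Points are libraries, and bars beside them are means with the SD (n = 3). PSAH-1 takes 65.5% to 69.6% in ACC roots and 35.0% to 45.5% in WT shoots, and PETE1 takes 11.5% to 14.4% in roots and 6.35% to 10.7% in shoots.

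The copies also stood differently in the organs. In ACC and KMBA plants the log2 ratio differed between 6 root and 6 shoot libraries for 5 of the 6 pairs after adjustment (exact permutation test, smallest p possible 0.00216), and the same 5 passed when organ was permuted within each compound, a test added after seeing the data (adjusted p 0.0075 to 0.012). Here too organ and pool cannot be told apart. PSAH-1 took a mean of 67.5% of its pair in ACC roots and 61.5% in KMBA roots, against 50.6% in ACC shoots and 49.5% in KMBA shoots, and the log2 ratio was higher by 0.73 in roots (adjusted p = 0.00433). With 0.1 FPKM added in place of 1, the PSAH ratio was higher by 0.85 in roots. PETE1 rose in share as well, with 13.8% in ACC roots and 12.1% in KMBA roots, against 7.53% in ACC shoots and 7.22% in KMBA shoots (1.00, adjusted p = 0.00433). PSAE-1 had the lower share in roots, at 38.6% with ACC and 43.0% with KMBA, against 57.2% in ACC shoots and 57.6% in KMBA shoots (-0.91, adjusted p = 0.00433). PSAD-1 (-0.53, adjusted p = 0.00974) and PSBO1 (-0.27, adjusted p = 0.0312) were lower against their copies in roots too, but the PSBO1 value did not pass in 7 of the 12 cases with a library left out, and PSBQ-1 was not distinguished (-0.12, adjusted p = 0.355). The mean log2 ratio of PSAD-1 to PSAD-2 was 1.16 in ACC roots, against 1.96 in ACC shoots, and 1.80 in KMBA roots, against 2.06 in KMBA shoots. In PSAD the ACC roots, at 69.1%, 70.8% and 69.7%, lay below the KMBA roots, at 79.8%, 80.1% and 75.8%. PSAD-1 had 30.18, 32.75 and 29.15 FPKM in ACC roots, against 48.76, 45.79 and 45.51 FPKM in KMBA roots, while the PSAD-2 libraries given above overlapped.

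Upstream of the genes, 3 short motifs were counted on both strands in the window from 250 bases before to 50 bases after the annotated start. CACGTG is the G-box, which factors of the bZIP and bHLH families recognise in light-regulated genes, GATAAG is the core of the I-box found in many photosynthesis promoters, and CCAAT is the box bound by NF-Y complexes. CACGTG was present for 13 of the 34 members (38.2%) and for 7.68% of 27443 Arabidopsis promoters of the same length. GATAAG was present for 19 members (55.9%) and 14.6% of all promoters, and CCAAT for 22 members (64.7%) and 51.6% of all promoters. A match is only a match of letters, and PSAG, PSAN, PSBP-1 and PSBS held none of the 3 in this window.

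The 250 bases before the start are shown for 4 members, the PSAH copies because their ratio differed between groups, PSBQ-2 because it was the member called between treatments, and PSBS because its difference between the root groups was the largest. Capitals mark matches of these motifs on either strand, and each run ends at the base before the annotated start. The windows are chr3:5469595-5469844 on the minus strand for PSAH-1, chr1:19454548-19454797 on the plus strand for PSAH-2, chr4:2673244-2673493 on the minus strand for PSBQ-2 and chr1:16869971-16870220 on the plus strand for PSBS, all from RefSeq TAIR10.1.
PSAH-1: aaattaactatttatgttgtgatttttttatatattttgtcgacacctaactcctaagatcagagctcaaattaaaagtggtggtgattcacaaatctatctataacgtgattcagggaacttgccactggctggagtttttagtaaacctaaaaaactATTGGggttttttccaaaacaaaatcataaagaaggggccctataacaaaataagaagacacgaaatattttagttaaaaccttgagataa
PSAH-2: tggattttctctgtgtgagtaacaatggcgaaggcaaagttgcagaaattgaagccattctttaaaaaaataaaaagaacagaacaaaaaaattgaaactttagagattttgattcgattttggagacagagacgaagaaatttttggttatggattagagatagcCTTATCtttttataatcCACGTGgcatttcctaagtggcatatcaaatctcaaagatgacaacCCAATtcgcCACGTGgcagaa
PSBQ-2: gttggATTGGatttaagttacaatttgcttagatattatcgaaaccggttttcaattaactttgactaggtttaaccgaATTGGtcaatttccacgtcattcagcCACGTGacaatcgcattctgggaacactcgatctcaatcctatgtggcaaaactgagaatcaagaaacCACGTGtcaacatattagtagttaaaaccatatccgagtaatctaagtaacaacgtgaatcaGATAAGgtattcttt
PSBS: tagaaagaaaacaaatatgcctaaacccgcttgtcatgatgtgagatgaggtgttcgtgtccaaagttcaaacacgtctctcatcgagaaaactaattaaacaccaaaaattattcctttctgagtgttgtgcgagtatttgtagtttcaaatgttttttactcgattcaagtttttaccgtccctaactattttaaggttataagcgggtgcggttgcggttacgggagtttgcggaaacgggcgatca

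PSAH-2 holds CACGTG at positions -67 and -12 relative to the annotated start, whereas PSAH-1 holds it only behind the start, at position 18. PSBQ-2 holds it at -145 and -77, and its copy PSBQ-1 at -83 and -55. LHCB6 (position -124), PSAE-2 (-63), LHCA4 (-88) and ATPD (-142) are the other members with CACGTG before the start. Members with and without the motif were found among those that fell with ACC, since PSAN, PSAK, PSAO, PSAL and PETE1 hold no CACGTG in the window.

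**Figure D5:**
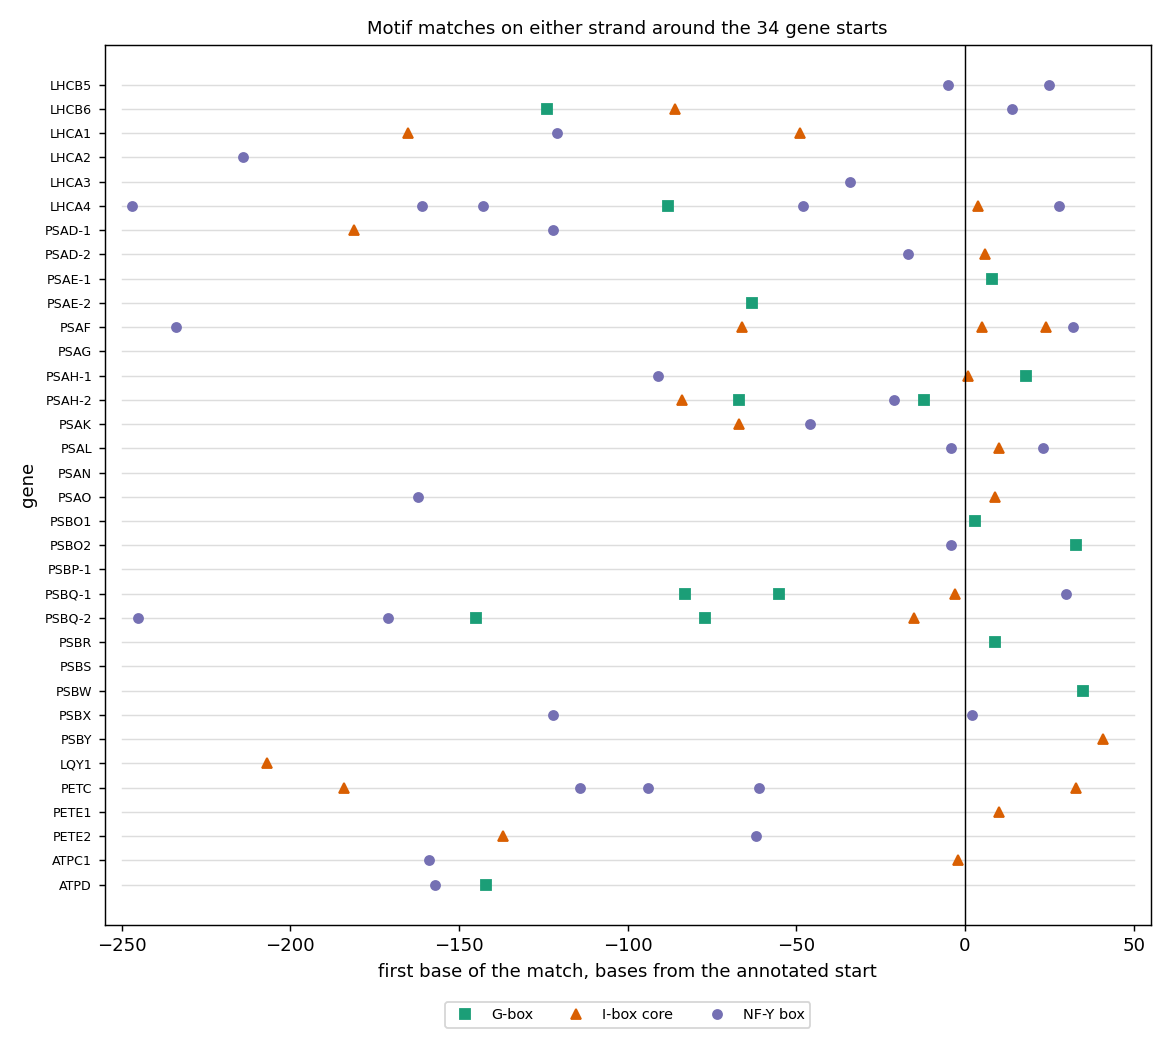
Positions of the G-box, the I-box core and the CCAAT box bound by NF-Y (NF-Y box, either strand) relative to the annotated start of each of the 34 genes, from 250 bases before to 50 after it. Of the members, 13 hold the G-box, 19 the I-box core and 22 the CCAAT box.

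Other genes of photosynthesis were described from lists of 84 genes in 10 groups. The list counts against WT stand beside the shares over all tested genes. Lower than WT were 13.2% with ACC, 11.0% with KMBA and 4.38% with SA187, and higher were 20.3%, 9.50% and 1.70%. Of 12 LHCB1 to LHCB4 antenna genes, 8 were lower than WT in ACC shoots, 10 in KMBA shoots and 7 in SA187 shoots, and none was higher, although near-identical copies of this family may share reads, which makes their single values uncertain. Their summed FPKM lay between 9963 and 11050 in ACC shoots, 11240 and 12880 in KMBA shoots and 9325 and 13420 in SA187 shoots, against 15260 to 22380 in WT shoots. Of 15 other electron transport genes, such as ferredoxins, FNR and the cyclic flow proteins PGR5 and PGRL1, 2 were higher and 5 lower with ACC, 4 higher and 1 lower with KMBA, and 3 higher and 0 lower with SA187. ATPG, the nuclear b-prime subunit of the ATP synthase, rose in each (0.59, 0.52 and 0.52 for ACC, KMBA and SA187), and PGR5 fell with ACC (-0.70, adjusted p = 0.0129).

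Genes for small subunits of Rubisco, the carbon-fixing enzyme, were called higher than WT or not at all in shoots. Of 4 genes, 3 were higher with ACC, 1 with KMBA and 2 with SA187, against 20.3%, 9.50% and 1.70% of all tested genes. Their summed FPKM was 12020, 17770 and 9287 in WT shoots. It was 17210 to 21880 in ACC shoots, 17800 to 22480 in KMBA shoots and 17630 to 26540 in SA187 shoots. WT replicate 2 thus overlapped with ACC and SA187 shoots. Values without single WT libraries are not given for the genes of these lists. RBCS1A was higher by 0.65 ± 0.19 with ACC (adjusted p = 0.0239), by 0.67 ± 0.19 with KMBA (adjusted p = 0.0322) and by 0.75 ± 0.19 with SA187 (adjusted p = 0.0428). Of 13 tested genes of chlorophyll synthesis, 1 was higher and 4 lower with ACC, 3 higher and 2 lower with KMBA, and 1 higher and 2 lower with SA187. CAO, which makes chlorophyll b, fell (-0.83, -0.67 and -0.77 for ACC, KMBA and SA187) and CHLG, which adds the phytol tail, rose (1.01, 1.12 and 0.98). Of 7 genes listed as, or together with, regulators of photosynthesis genes (GLK1, GLK2, GNC, CGA1, HY5, HY2 and GUN1), 0 were called in any comparison with WT. Of 5 genes of chlorophyll breakdown and senescence, ORE1 rose with ACC (0.63, adjusted p = 0.00742), and 0 were called with KMBA or SA187.

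In roots, genes called lower with ACC than with KMBA, as 9.40% of all tested genes were, made up 10 of 15 other electron transport genes (PGR5 at -0.63, FD2 at -0.59), 4 of 10 tested LHCB genes, all 3 tested Rubisco genes and 8 of 12 tested chlorophyll synthesis genes (GUN4 at -0.54, DVR at -0.61), and no gene of these 4 lists was called higher. RBCS3B had 7.16, 13.5 and 9.79 FPKM in ACC roots, against 29.0, 35.9 and 29.1 FPKM in KMBA roots (-1.57 ± 0.20, adjusted p = 0.00387), a larger difference on the log2 scale than that of any photosystem member. None of the 4 tested genes of the regulator list was called (0 at an adjusted p under 0.05 with limma). In the list of chlorophyll breakdown and senescence, the senescence factor ORE1 was higher in ACC roots by 1.57 ± 0.21 (adjusted p = 0.00449), whereas PAO (-0.49) and PPH (-0.28), which degrade chlorophyll, were lower.

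Markers of other cell types were read beside the root result. The 6 shoot markers outside photosynthesis (TMM, FAMA, CER1, CER6, ATML1 and AS1) summed to 14.9 to 18.6 FPKM in ACC roots and 15.8 to 19.4 FPKM in KMBA roots, with overlapping libraries, and 0 of the 3 that could be tested were called. The stomatal genes TMM, at 0.0877 to 0.175 FPKM, and FAMA, listed at 0 in all ACC root libraries and in all but 1 of the KMBA root libraries, were near 0 in roots. The 10 root markers summed to 189 to 200 FPKM in ACC roots and 206 to 237 FPKM in KMBA roots. Of these, 2 were higher and 2 lower in ACC roots, against 6.79% and 9.40% of all tested genes, and the 5 reference genes had 0 calls. In shoots, 4 of the 6 shoot markers and 3 of the 5 reference genes were higher with ACC than in WT. Of all tested genes, 20.3% were called higher in this comparison. The reference genes summed to 790 to 902 FPKM in ACC shoots, against 469 to 666 FPKM in WT shoots. The part of these differences in the falls of the members was not tested.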

How the data were processed

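PolyA RNA of 18 libraries, 3 in each of 6 groups named by the labels, had been sequenced. The submitters' processing notes name FastQC 0.11.5, Trimmomatic 0.36, TopHat, featureCounts 1.5.1, Cufflinks 2.2.1, Cuffdiff and the build TAIR10. The authors deposited 1 FPKM value per gene and library for 27371 genes, and a scaling between libraries and the use of strand are not stated in the sources used here. The study gives a range of read numbers but none per library, and the table holds no counts, so that the errors given are those between replicate libraries. All columns of values were used.

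log2(FPKM + 1) was modelled in limma 3.58.1 under R 4.3.3 (eBayes with a trend, 2-sided), keeping genes that reached 1 FPKM in 3 or more libraries of the model, with Benjamini-Hochberg adjustment over all genes kept. Folds on this scale understate changes of low genes. One model held the shoots, one the roots, and one both organs of ACC and KMBA plants. Calls required an adjusted p under 0.05, and a fold over 2 where said. Ratios of 6 gene pairs, with 1 FPKM added to each copy, were tested by exact permutation of libraries. The scripts were tested on simulated data. Names, lengths and sequences were taken from RefSeq TAIR10.1, in which all 34 members and 26703 of the table's genes had a length. The table holds no coordinates. Members, lists and tests were chosen with earlier results of these data known.

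Library values are given for at most 6 called members that rose most and 6 that fell most in a comparison (for the 3 with the lowest p where fewer than 3 were called). They are also given for LQY1 and, in some groups, for copies of the pairs, which elsewhere have at most a range, a mean or a share of the pair. At most 3 genes with the lowest p were named per list and comparison. Members and list genes named beyond this were chosen after their values were seen. The alternatives changed the pseudocount (0.1), the filter (none), the scaling (median ratio) or the trend (none). Scaling to the sum of all other genes was used only in the model of both organs. Other alternatives changed the samples (only the compared groups in shoots, no WT group for the pairs, or 1 library left out). The model was also changed (replicate block, sequencing pool in shoots, or lowess trends with transcript length and GC, span 0.3, subtracted). WT replicate 2 as the only WT library and, for the pairs, organ permuted within each compound were added after seeing the data. Protein sequences were not used here, and coding DNA is shown in their place. Python 3.11.15, pandas 2.3.3, scipy 1.17.1, Biopython 1.88 and matplotlib 3.10.9 were used.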

Additional observations from a re-analysis of the deposited data

Results flagged for a closer look

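For 4 members the difference between roots and shoots was not the same with ACC as with KMBA, by a test of that difference itself (limma, adjusted p under 0.05 over 18357 genes, of which 7.40% were called in this direction). This count was 1 with median-ratio scaling, 1 with trends in length and GC removed and 0 relative to the sum of other genes, and 4 of 34 is near the share over all genes. The root-minus-shoot difference with ACC minus that with KMBA was -0.74 on the log2 scale for PSBS, -0.55 for PSBY, -0.50 for LHCB5 and -0.49 for PSAL. PSBS had 5.77, 7.54 and 6.94 FPKM in ACC roots and 12.9, 13.8 and 12.7 FPKM in KMBA roots, and 475, 392 and 383 FPKM in ACC shoots and 489, 435 and 444 FPKM in KMBA shoots. LHCB5 had 9.66, 11.6 and 9.19 FPKM in ACC roots and 15.8, 15.0 and 15.0 FPKM in KMBA roots, and 370, 372 and 391 FPKM in ACC shoots and 407, 398 and 366 FPKM in KMBA shoots. In roots the compound and the sequencing pool cannot be told apart.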

How the results depend on the processing

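The 34 of 34 lower in roots and the 24 of 34 lower in ACC roots stayed within 1.5 times under every alternative other than leaving out a library. Member counts at an adjusted p under 0.05 moved as follows. With no filter, SA187 against WT had 0 higher and 1 lower, KMBA 2 lower, ACC 1 higher, and ACC against KMBA shoots 0 lower. With median-ratio scaling the counts were 1 higher and 0 lower for SA187, 4 lower for KMBA, 3 lower for ACC against SA187, and 1 for the difference of differences. With trends in length and GC removed they were 1 lower for KMBA, 2 lower past the fold for ACC, 5 lower for ACC against SA187, 2 for ACC against KMBA shoots and 1 for the difference of differences, which was 0 relative to the sum of other genes. With the pool as a covariate they were 1 higher for SA187, 3 lower for KMBA, 1 higher and 2 lower past the fold for ACC, and 0 for ACC against SA187 and against KMBA shoots. With only the compared groups they were 0 and 0 for SA187, 1 higher and 3 lower for KMBA, 3 for ACC against SA187 and 2 for ACC against KMBA shoots. Without the trend, 2 were lower in ACC against SA187. With WT replicate 2 as the only WT library, where calls are not counted, the medians over the members were -0.35 with ACC, -0.21 with KMBA and -0.16 with SA187.

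When a library was left out, the counts higher and lower were 0 to 3 and 0 to 6 for SA187 (0 to 1 and 0 to 2 past the fold), 1 to 3 and 2 to 7 for KMBA (0 to 1 and 0 to 1), and 1 to 3 and 9 to 12 for ACC (0 and 2 to 4). Lower counts were 0 to 6 for ACC against SA187, 0 for ACC against KMBA shoots, 10 to 24 for roots and 1 to 6 for the difference of differences. The adjusted p of the pair ratios in shoots was 0.0408 to 0.422 for PSAD, 0.00351 to 0.101 for PSAH and 0.00117 to 0.101 for PSBQ, and 0.013 to 0.0623 for PSBO between organs. Without the WT group it was 0.193 for PSAH and 0.0643 for PSBQ. The causes were not tested.

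The main models did not pair libraries by replicate number. Correlations between deviations of same-numbered libraries ran from -0.17 (WT and KMBA shoots) to 0.34 (the same groups). They exceeded 0.1 for all 3 numbers in no pair of groups. Such correlations cannot show whether same-numbered samples were grown or collected together. A replicate block gave 3 lower in ACC against SA187, 6 lower for KMBA against WT, 3 higher and 4 lower for SA187 against WT, 28 lower in roots and 6 for the difference of differences.

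No called value turned its sign. Of members not called against WT, 7 of 20 with ACC, 10 of 24 with KMBA and 14 of 29 with SA187 took both signs over the alternatives. With WT replicate 2 as the only WT library PSAH-1 was at -0.16 with SA187 and LHCA4 at 0.02 with KMBA and 0.10 with ACC. With a library left out PSAH-1 with KMBA ran from -0.25 to 0.00, PSBQ-1 with ACC from -0.26 to 0.00 and PSAD-2 in roots from -0.02 to 0.15. Compound and pool cannot be told apart in roots, nor organ and pool between organs.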
